A study of Mus musculus with 6 samples.

Results

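The enzymes that conjugate ATG12 and the LC3 family during autophagy were examined in haematopoietic stem cells (HSCs) of control and MaeaCsf1r-Cre mice. They are Atg7, Atg3, Atg10, Atg12, Atg5, Atg16l1 and the proteases Atg4a, Atg4b, Atg4c and Atg4d. They were chosen by name, and these 10 genes made up 10 of the 46959 rows in the deposited expression table. The study sequenced RNA from HSCs sorted from the bone marrow of control and MaeaCsf1r-Cre mice, in 3 replicates per genotype. Each replicate held about 2000 cells pooled from a pair of mice. The mice were adults, given as 8 weeks old in the series design, while the study's methods give a range of ages. MaeaCsf1r-Cre mice carry floxed Maea and the Csf1r-iCre transgene, which was made to act in mononuclear phagocytes and which the study also used for HSCs. The controls were their littermates, and the labels do not give the alleles that a control library carried. Maea encodes a subunit of a ubiquitin ligase complex.

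Autophagy delivers cytoplasm to the lysosome in a double membrane, and the attachment of small ubiquitin-like proteins promotes the growth of that membrane. ATG7 activates both ATG12 and the LC3 and GABARAP proteins. ATG10 passes ATG12 on to ATG5, and ATG3 passes LC3 on to the lipid phosphatidylethanolamine. The ATG12-ATG5 conjugate, held on the membrane by ATG16L1, directs that last step. ATG4 proteases trim newly made LC3 and GABARAP so that they can be conjugated, and later cut them off the lipid again. HSCs depend on this pathway, and loss of Atg7, Atg5 or Atg12 from blood cells is known to impair HSC maintenance. Much of the regulation of these enzymes acts on the proteins, which RNA levels do not show.

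The 4 proteases share a fold and a catalytic cysteine, but their transcripts differ enough for most reads to be told apart. The stretches below are shown to let the paralogues be compared at the same place. Each is 51 bases of coding sequence around the codon of the cysteine that follows a tryptophan and a glycine, taken from the GENCODE M21 transcript with the longest coding sequence on GRCm38. Capitals mark the cysteine codon.

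Atg4a: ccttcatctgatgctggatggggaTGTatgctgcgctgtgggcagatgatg

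Atg4b: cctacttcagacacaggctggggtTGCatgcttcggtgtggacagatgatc

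Atg4c: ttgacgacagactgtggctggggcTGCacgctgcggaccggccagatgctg

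Atg4d: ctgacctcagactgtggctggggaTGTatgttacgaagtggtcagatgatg

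The Atg4a stretch lies at chrX:140990169-140990219 on the plus strand, and that of Atg4b at chr1:93773781-93773831, also plus. The Atg4c stretch lies at chr4:99218111-99218161 and the Atg4d stretch at chr9:21266993-21267043, both plus. The stretch was in exon 4 of the transcript for Atg4a, Atg4b and Atg4c and in exon 3 for Atg4d. The cysteine was codon 77 in Atg4a, 74 in Atg4b, 111 in Atg4c and 144 in Atg4d. Of the 51 bases, Atg4a shared 38 with Atg4b, Atg4d shared 37 and Atg4c shared 34. Over the whole coding sequence, the identity of aligned bases between any 2 of the 4 lay between 60.9% for Atg4c with Atg4d and 65.4% for Atg4a with Atg4b. No identical run between them exceeded 16 bases, against a read length of 150 bases.

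Atg4a has a far closer relative. Atg4a-ps is a single-exon copy at chr3:103643954-103646068 on the minus strand, which GENCODE lists as protein coding and which the deposited table lists in a row of its own. The 60 bases of the Atg4a coding sequence in which the copy differs most are shown here because they show how little separates the 2 genes. Capitals mark the differing positions.

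Atg4a: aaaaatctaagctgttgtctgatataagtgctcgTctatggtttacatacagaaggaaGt

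Atg4a-ps: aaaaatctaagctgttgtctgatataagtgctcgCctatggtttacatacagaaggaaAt

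The first lies in exon 3 of Atg4a at chrX:140988166-140988225 and the second at chr3:103645843-103645902. Even this stretch held only 2 differences. The coding sequences, 1188 bases each, were 99.4% identical with 7 differences and no gap. Of the 2053 stretches of read length in the 2202-base Atg4a transcript, 30.8% also occurred base for base in the copy. Values of Atg4a alone are uncertain for this reason. Atg4d shares 1405 exon bases with Kri1 on the opposite strand, and whether the counting used strand is not given in the sources used here.

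The values are CPM, the reads of a gene scaled to a common library total. The spacing of low CPM values put 32968000 to 39614000 reads behind the scaling of control libraries and 44159000 to 60937000 behind that of MaeaCsf1r-Cre libraries. Maea itself, which checks the labels, was at 108, 116 and 123 CPM in control 1, 2 and 3 and at 76.9, 88.6 and 101 CPM in MaeaCsf1r-Cre 1, 2 and 3. The groups did not overlap, at 116 ± 7.29 against 88.8 ± 12.05 CPM (SD, n = 3 here and throughout). The log2 fold change was -0.39 (95% interval -0.70 to -0.07, unadjusted p = 0.0214, limma). The difference did not pass the test used for all genes (adjusted p = 0.967, limma). The table does not show which exon the Maea reads came from. The 8 genes of the HSC marker list were all present. They summed to 999 to 1523 CPM in control and 708 to 1213 CPM in MaeaCsf1r-Cre libraries. The sum includes Cd48, although the study sorted HSCs as cells without CD48 on their surface. Cd48 was at 33.5, 19.4 and 12.4 CPM in control and at 46.5, 22.1 and 15.8 CPM in MaeaCsf1r-Cre libraries. The macrophage markers summed to 11.8 to 57.9 CPM in control and 0.249 to 42.1 CPM in MaeaCsf1r-Cre libraries. Of the 5 of 7 that were tested, 0 were called (limma). The complement genes C1qa, C1qb and C1qc, 3 of the 5, had lower groups after deletion that did not overlap with the controls. Such groups were found for 6.06% of all genes tested. The log2 fold changes of these 3 were -1.42, -2.55 and -2.51 (limma unadjusted p 0.000453, 5.15e-05 and 7.91e-05, adjusted p 0.489, 0.194 and 0.205). The libraries were not alike: Vcam1 and Mrc1 were higher in MaeaCsf1r-Cre 3 than in every control (10.8 CPM for Mrc1), and the other 2 MaeaCsf1r-Cre libraries held almost none. The B cell markers summed to 16.4 to 27.4 CPM in control and 13.1 to 24.2 CPM in MaeaCsf1r-Cre libraries, nearly all of it Cd79b, and 2 of the 6, Ms4a1 and Pax5, were listed at 0 in every library. The 3 T cell markers summed to at most 0.0656 CPM. Neutrophil markers summed to 76.3 to 302.1 against 76.0 to 163.9 CPM, erythroid markers to 191 to 520 against 233 to 499.7 CPM, and megakaryocyte markers to 213 to 969 against 284 to 593 CPM, with overlapping sums and 0 calls in each list. In bulk samples, fewer cells of a type and less RNA per cell cannot be told apart.

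All 10 enzymes were expressed in every library, from 4.98 CPM for Atg4c to 73.0 CPM for Atg4b, and all passed the filter on low values. None passed the test for a difference between the groups. Of 12955 genes tested with limma on log2(CPM + 1), 1 had an adjusted p under 0.05 (0.00772% of genes), and 0 of the 10 enzymes did. At an unadjusted p under 0.05 the count was 517 genes (3.99%) and 0 enzymes. Every enzyme's 95% interval spanned 0. Together the intervals reached from 0.548-fold, for Atg4c, to 1.35-fold, for Atg4d, on the CPM + 1 scale.

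**Figure D1:**
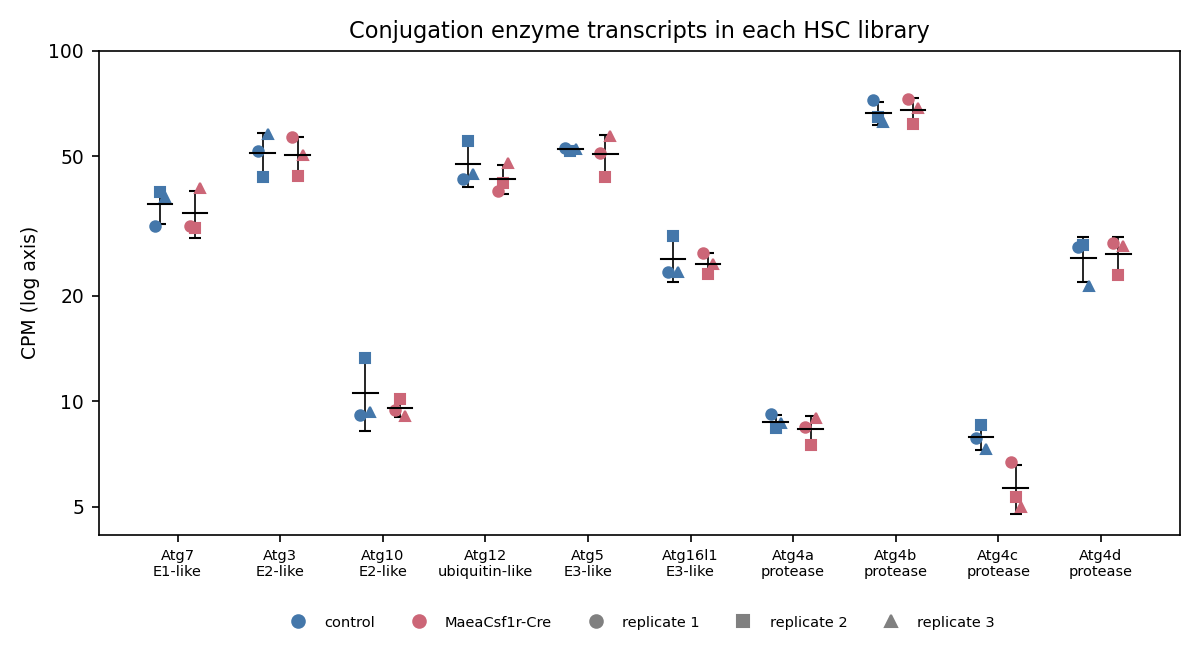
CPM of the 10 conjugation enzymes on a log axis, in 3 control (blue) and 3 MaeaCsf1r-Cre (red) HSC libraries. Symbols give the replicate number, and bars the mean and SD of each group. The groups overlap for 9 enzymes, and for Atg4c the highest MaeaCsf1r-Cre value, 6.68 CPM, lies under the lowest control value, 7.27 CPM.

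Atg7 (chr6:114643097-114860614), the single activating enzyme for both systems, was at 31.5, 39.5 and 38.2 CPM in control 1, 2 and 3 and at 31.6, 31.2 and 40.5 CPM in MaeaCsf1r-Cre 1, 2 and 3. The highest and the lowest of the 6 values both came from MaeaCsf1r-Cre libraries. The means of 36.4 ± 4.28 and 34.4 ± 5.25 CPM gave a log2 fold change of -0.08 (SE 0.16, 95% interval -0.46 to 0.30, limma adjusted p = 0.973).

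The conjugating enzymes act after Atg7. Atg3 (chr16:45158785-45188538), which hands LC3 to the lipid, had control values of 51.6, 43.7 and 57.8 CPM and MaeaCsf1r-Cre values of 56.8, 44.0 and 50.5 CPM. In both groups replicate 2 was the lowest. Its log2 fold change was -0.02 (SE 0.16, interval -0.38 to 0.35). Atg10 (chr13:90935356-91223968), which serves ATG12 alone, was at 9.13, 13.3 and 9.29 CPM in control and 9.45, 10.1 and 9.09 CPM in MaeaCsf1r-Cre libraries. One control library stood above the other five, which lay within about 1 CPM of each other. The group means were 10.6 ± 2.34 and 9.55 ± 0.524 CPM (log2 fold change -0.11, interval -0.57 to 0.35), and Atg10 had the widest SE of the 10, at 0.20.

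Atg12 encodes the ubiquitin-like protein itself. It was at 43.0, 55.1 and 44.5 CPM in control and at 39.9, 41.9 and 47.7 CPM in MaeaCsf1r-Cre libraries. Replicates 1 and 2 of the MaeaCsf1r-Cre group lay under all controls and replicate 3 did not. The means were 47.5 ± 6.63 and 43.2 ± 4.06 CPM, with a log2 fold change of -0.13 (SE 0.15, interval -0.48 to 0.21, limma adjusted p = 0.967). The difference was smaller than the SD of the controls, and without control 2 the log2 fold change was -0.02.

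Atg5 (chr10:44268358-44364291), to which ATG12 is joined, had control values of 52.9, 51.7 and 52.5 CPM and MaeaCsf1r-Cre values of 51.1, 43.5 and 57.2 CPM. The controls varied by 1.16% of their mean, which is less than the counting error of any one of them (2.21 to 2.39%), while the MaeaCsf1r-Cre values varied by 13.5% around them. The log2 fold change was -0.06 (SE 0.14, interval -0.37 to 0.26). Atg16l1 (chr1:87755870-87792428), the scaffold that brings ATG12-ATG5 to the membrane, was at 23.4, 29.6 and 23.3 CPM in control and 26.5, 23.0 and 24.7 CPM in MaeaCsf1r-Cre libraries. Here too 1 control library, replicate 2, stood above the rest. Its log2 fold change was -0.04 (SE 0.16, interval -0.40 to 0.33).

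Among the proteases, Atg4b (chr1:93751500-93790610), the most active ATG4 on LC3, had control values of 72.3, 64.5 and 62.6 CPM and MaeaCsf1r-Cre values of 73.0, 61.7 and 68.6 CPM. The 2 groups covered almost the same range. Its log2 fold change of 0.03 had the smallest SE of the 10 (0.13, interval -0.26 to 0.32). Atg4d (chr9:21265293-21277772) was at 27.6, 27.8 and 21.3 CPM in control and 28.3, 22.9 and 27.8 CPM in MaeaCsf1r-Cre libraries. Each group held 1 lower library, and the log2 fold change was 0.04 (SE 0.17, interval -0.35 to 0.44).

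Atg4a (chrX:140956907-141164270), which prefers GABARAP proteins, was at 9.18, 8.36 and 8.63 CPM in control and 8.44, 7.50 and 8.97 CPM in MaeaCsf1r-Cre libraries, with overlapping groups. The log2 fold change was -0.07 (SE 0.17, interval -0.47 to 0.34). The retrogene was listed at 7.02, 7.12 and 5.48 CPM in control and 6.07, 4.80 and 5.85 CPM in MaeaCsf1r-Cre libraries. Converted back to reads, the Atg4a values were whole numbers (within 0.05 reads) in only 2 of 6 libraries, and so were those of Atg4a-ps. Their sums were whole in 6 of 6, at 534, 613 and 483 reads in control and 884, 543 and 657 reads in MaeaCsf1r-Cre libraries. For comparison, 68.8% of all values between 100 and 1000 reads were whole. The deposited levels of the 2 genes thus add up to whole reads in each library, while the part given to each is a fraction. Summed, they came to 16.2, 15.5 and 14.1 CPM in control and 14.5, 12.3 and 14.8 CPM in MaeaCsf1r-Cre libraries. The groups overlapped here as well, and the log2 fold change of the sum, an alternative chosen after the values were seen, was -0.13 (limma adjusted p = 0.967).

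**Figure D2:**
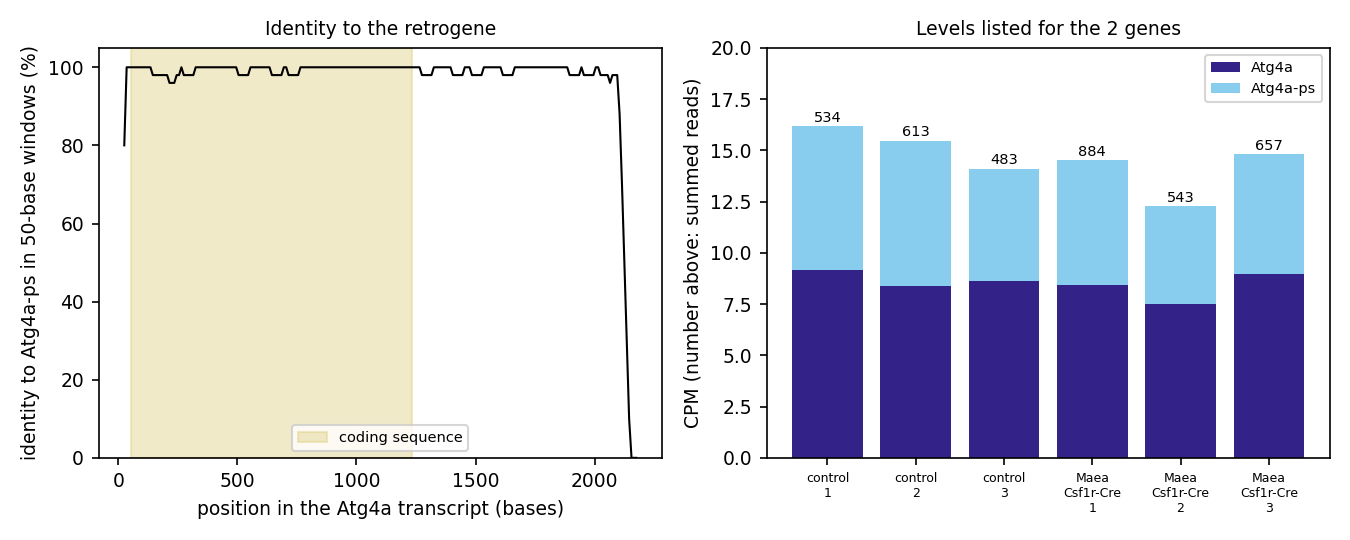
Left, identity of the Atg4a transcript to Atg4a-ps in 50-base windows along the transcript, with the coding sequence shaded. Right, CPM listed for Atg4a and Atg4a-ps in each library, with the summed reads above each bar. The identity stays near 100% until the transcript's end, and the sums lie between 12.3 and 16.2 CPM with overlapping groups.

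Atg4c (chr4:99193934-99259787), a protease that in its full-length form cuts LC3 only weakly, was the 1 enzyme of 10 whose groups did not overlap. Control libraries were at 7.83, 8.56 and 7.27 CPM and MaeaCsf1r-Cre libraries at 6.68, 5.32 and 4.98 CPM. All controls lay above all MaeaCsf1r-Cre libraries, and the gap between the groups was smaller than the spread within either. These values rest on 221 to 407 reads per library, the fewest among the enzymes, with a counting error of 4.96 to 6.73% of each value. The means were 7.89 ± 0.644 and 5.66 ± 0.897 CPM, and the log2 fold change was -0.42 (SE 0.19, interval -0.87 to 0.02). The unadjusted p in limma was 0.0611, and the adjusted p was 0.967. Over all genes tested, 1108 (8.55%) had groups that did not overlap in either direction, and 785 (6.06%) did so with the lower values after deletion, so 1 enzyme of 10 was near that background. With the replicate number as a block in limma, the unadjusted p of Atg4c was 0.0447 and the interval -0.83 to -0.01, with an adjusted p of 0.351. The block brought 1805 genes (13.9%) and 1 enzyme of 10 to an unadjusted p under 0.05.

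The separation of Atg4c depended on the scaling. After rescaling by median ratios, 1 enzyme still had groups that did not overlap, and the log2 fold change of Atg4c was -0.37. A pseudocount of 0.1 gave -0.48, but a pseudocount cannot change which groups overlap. With a correction of each library for transcript length its groups overlapped, and the log2 fold change was -0.34 (limma adjusted p = 0.958). Under quantile normalization the groups overlapped as well (-0.27, adjusted p = 0.930). Leaving out any 1 library gave log2 fold changes between -0.53 and -0.35. Of the macrophage markers the 3 C1q genes were also lower in every MaeaCsf1r-Cre library. MaeaCsf1r-Cre 3 had the lowest Atg4c value, 4.98 CPM, and its summed macrophage markers were at 42.1 CPM. Nearly all of that sum was Vcam1 and Mrc1. In the same library C1qa, C1qb and C1qc were at 0.0678, 0.474 and 0.203 CPM, and Adgre1 and Cd5l at 0.203 and 0.293 CPM. The part of macrophage RNA in the Atg4c values was not tested.

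**Figure D3:**
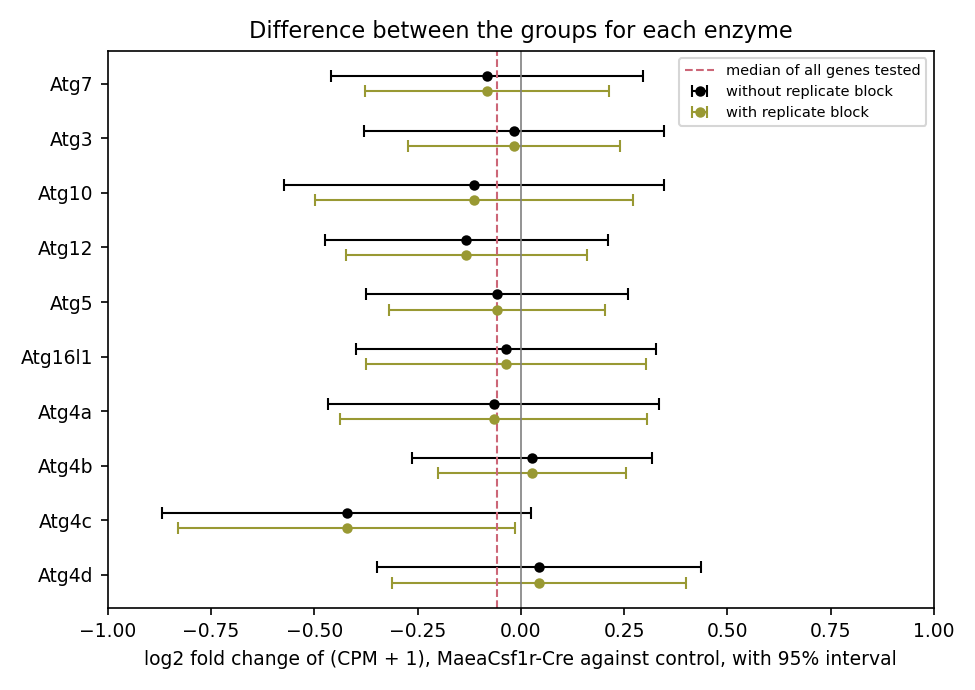
Log2 fold change of (CPM + 1) for each enzyme, MaeaCsf1r-Cre against control, with 95% intervals from limma without (black) and with (olive) the replicate block; the dashed line is the median of all genes tested, -0.06. All 10 black intervals include 0, and of the olive ones that of Atg4c, -0.83 to -0.01, does not.

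Over the 10 enzymes the differences centred where those of the whole transcriptome did. Their median log2 fold change was -0.06, and that of all 12955 genes was -0.06. By the fit 8 were lower and 2 were higher, against 60.9% of all genes lower, but these signs rest on the scale: after the length correction 2 were lower, with a median of 0.03 for the enzymes and 0.03 for all genes. For 9 of the 10 the difference between the group means was smaller than the larger of the 2 SDs.

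The differences were furthest below 0 in replicate 2. Libraries with the same number deviated together over all genes and were set against each other in pairs, although the labels do not state a pairing. In replicate 2 the MaeaCsf1r-Cre library was lower than its control for 9 of 10 enzymes, with a median log2 difference of -0.30, and 68.1% of all genes were lower in that pair, with a median of -0.14. In replicate 1 it was lower for 4 of 10, with medians of 0.01 for the enzymes and -0.03 for all genes. In replicate 3 it was lower for 3 of 10, with medians of 0.08 and 0.01. Atg4c alone was lower in all 3 pairs, by -0.20, -0.60 and -0.47 on the log2 scale, and the other 9 were mixed. MaeaCsf1r-Cre 2 gave the lowest of the 6 values for 5 enzymes and control 2 the highest for 4. The fit with the block narrowed the SE of all 10, to between 0.10 and 0.17, and called 0 of them. Over all genes tested, the median SE also fell with the block, from 0.20 to 0.14.

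**Figure D4:**
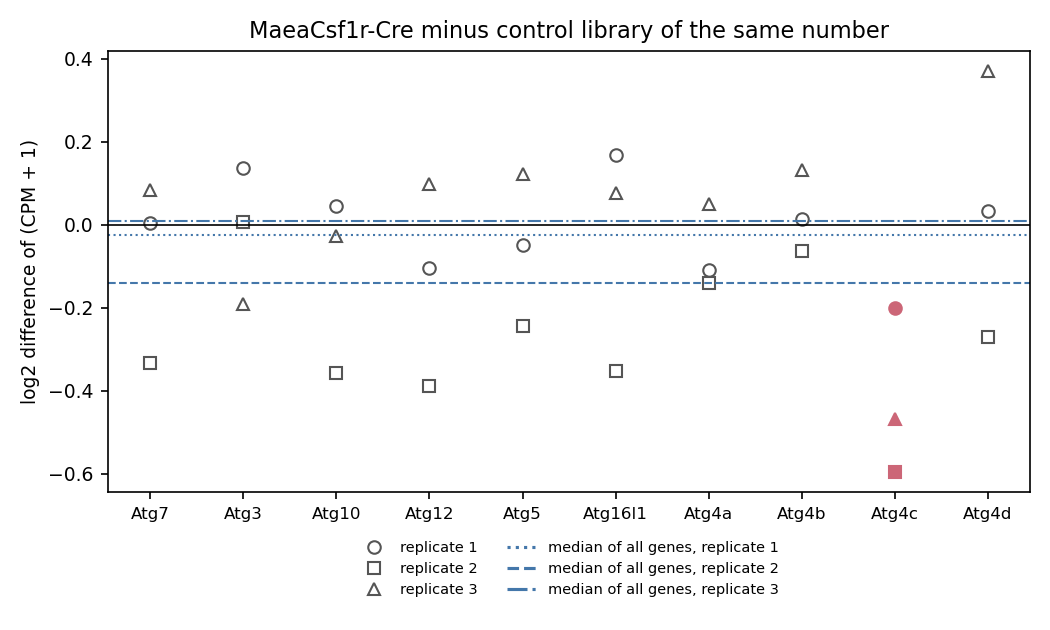
Log2 difference of (CPM + 1) between the MaeaCsf1r-Cre and the control library of the same replicate number, for each enzyme; horizontal lines give the median of all genes tested in each pair. The squares of replicate 2 lie below 0 for 9 enzymes, and Atg4c (filled) lies below 0 in all 3 pairs, between -0.20 and -0.60.

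Between genes, levels can be compared only per length. Per kilobase of merged exons, Atg5 stood highest at 21.9 CPM per kilobase over all libraries, above 82.2% of the 12449 tested genes with a length, and Atg3 followed at 16.1. Both were apart from their neighbours in the order. Atg4b came next at 8.11, also apart. Atg12 (5.88), Atg10 (5.85) and Atg7 (5.08) followed with overlapping ranges, and so did Atg4d (3.57), Atg4a (3.20), Atg16l1 (2.60) and Atg4c (2.02) below them. Atg4c was thus the lowest of the 10, above 25.5% of tested genes. By the longest transcript in place of merged exons, Atg3 (24.4 CPM per kilobase) and Atg5 (21.9) overlapped at the top, Atg4b again followed them at 16.0 and Atg4c last at 2.13. Atg16l1 moved most, to 6.69 and from the place above Atg4c to that below Atg7, since its merged exons are 9628 bases long and its longest transcript 3751. The conjugating enzyme of ATG12 thus stood below that of LC3, Atg10 below Atg3, by both lengths.

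Atg4b made up the largest part of the protease transcripts. Its share of the summed Atg4 CPM per kilobase of merged exons was 47.7, 45.0 and 47.5% in control and 49.3, 49.6 and 48.8% in MaeaCsf1r-Cre libraries. Every MaeaCsf1r-Cre library lay above every control, by less than 5 percentage points. Atg4c had 12.7, 14.7 and 13.7% in control and 11.1, 10.6 and 8.76% in MaeaCsf1r-Cre libraries, again with no overlap and in the other direction. Since the 4 shares of a library sum to 100%, these differences are not independent of each other. Atg4a (19.1 ± 1.16 against 18.8 ± 1.06%) and Atg4d (20.4 ± 1.88 against 21.8 ± 0.767%) overlapped. By the longest transcript the share of Atg4b was 59.6 ± 1.44 against 61.9 ± 0.456% and that of Atg4c 9.34 ± 0.754 against 6.81 ± 0.832%. With the reads listed for Atg4a-ps added to Atg4a, an alternative chosen after the values were seen, Atg4a took 29.2 ± 0.266 against 27.9 ± 1.05%, Atg4b 40.9 ± 1.69 against 43.8 ± 0.538% and Atg4c 11.1 to 12.8 against 7.76 to 9.89%. The sizes of the shares thus rest on the length used and on the split between Atg4a and its copy.

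**Figure D5:**
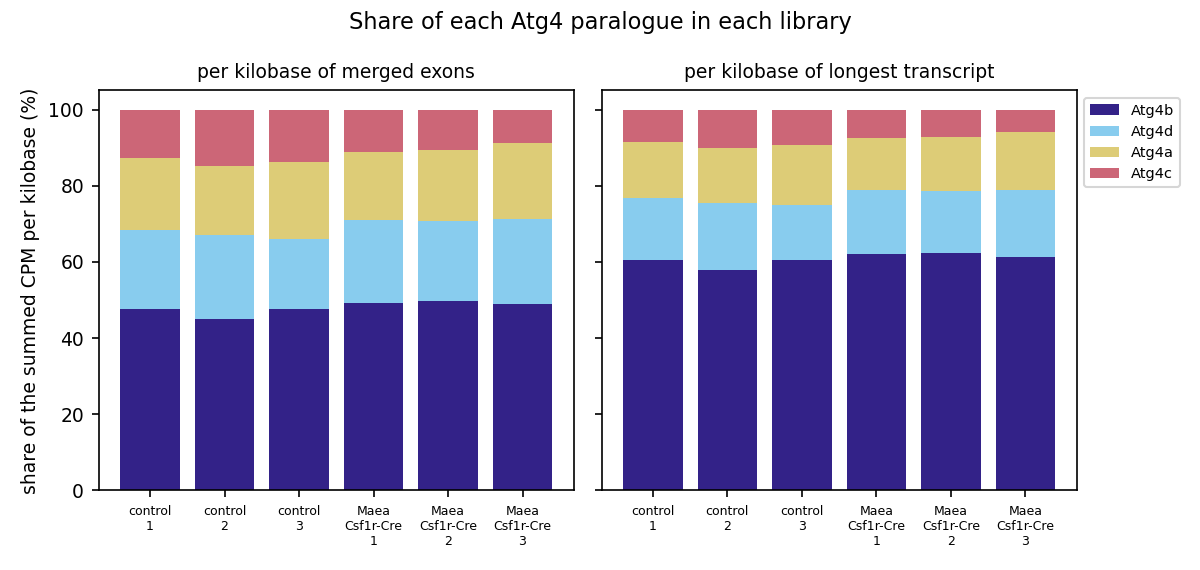
Share of Atg4a, Atg4b, Atg4c and Atg4d in their summed CPM per kilobase in each library, by merged exons (left) and by the longest transcript (right). Atg4c, the uppermost segment, takes 12.7 to 14.7% in controls and 8.76 to 11.1% in MaeaCsf1r-Cre libraries in the left panel.

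The substrates of these enzymes gave no call either (0 of 5, limma). All 5 had negative log2 fold changes, against 60.9% of all genes lower, with a median of -0.15 beside -0.06 for all genes. After the length correction the median was -0.10 beside 0.03 for all genes, and Gabarap was at 0.02. Map1lc3b, which encodes LC3B, was the most abundant in CPM, at 258, 326 and 258 in control and 197, 236 and 299 in MaeaCsf1r-Cre libraries (log2 fold change -0.21, SE 0.18), with overlapping groups. Gabarapl2, a GABARAP relative, had the smallest p of the list (0.197 in limma, unadjusted), with 57.2, 54.5 and 56.2 CPM in control and 45.2, 46.0 and 56.6 CPM in MaeaCsf1r-Cre libraries. Here 2 of the 3 MaeaCsf1r-Cre libraries lay under all controls. Gabarapl1 (-0.15), Map1lc3a (-0.10) and Gabarap (-0.02) were closer to 0 on the log2 scale. Of the other partners of ATG12-ATG5, Atg16l2, a relative of Atg16l1, had a log2 fold change of 0.01 (SE 0.20). Tecpr1, which can take the place of ATG16L1 on lysosomes, had one of -0.65 (SE 0.36) at 12.5, 18.0 and 9.70 CPM in control and 4.35, 8.95 and 12.5 CPM in MaeaCsf1r-Cre libraries. Its low value in MaeaCsf1r-Cre 1 and its high value in control 2 were not matched by the other libraries, and the groups overlapped.

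Upstream of conjugation, the 12 genes of the ULK1 and phosphatidylinositol 3-kinase complexes had 0 calls and a median log2 fold change of -0.03. Of these 2 had groups that did not overlap, beside 8.55% of all genes, and they were named after their values were seen. Atg13 was higher after deletion, at 41.4 ± 1.87 against 38.5 ± 0.810 CPM (unadjusted p = 0.430, limma). Atg14 was lower, at 19.7 ± 3.13 against 25.1 ± 4.84 CPM (unadjusted p = 0.127, limma). Rb1cc1, which encodes the ULK1 scaffold FIP200, had the smallest p of the 12 (0.0497 in limma, unadjusted, with an adjusted p of 0.967). Control libraries held 43.8, 57.5 and 53.9 CPM of it and MaeaCsf1r-Cre libraries 33.9, 37.5 and 46.5 CPM, with overlapping groups (log2 fold change -0.39, SE 0.17). The 10 genes of membrane supply, which carry lipid to the growing membrane or bind it, also had 0 calls, with a median of -0.07. Wipi2, which recruits ATG16L1, was nearest to a call among them at -0.11 (SE 0.12). The 5 transcription factors of autophagy genes had 0 calls and a median of -0.34, or -0.21 after the length correction. Foxo3 had their smallest unadjusted p (0.112 in limma) with a log2 fold change of -0.42 (SE 0.24).

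The enzymes of other ubiquitin-like systems, those of UFM1, NEDD8, SUMO and ISG15, served to show how sister pathways behaved in the same libraries. Of 18 genes, 0 were called, 2 had an unadjusted p under 0.05 and 3 had groups that did not overlap, beside 3.99% and 8.55% of all genes, with a median log2 fold change of 0.05. The smallest unadjusted p was that of Ube2l6 (0.0188 in limma), the conjugating enzyme of ISG15, at 124, 132 and 108 CPM in control and 213, 138 and 176 CPM in MaeaCsf1r-Cre libraries. All 3 MaeaCsf1r-Cre values lay above the controls, with a log2 fold change of 0.51 (SE 0.17, limma adjusted p = 0.967). Usp18, which removes ISG15, was the other gene at that threshold and was named after its values were seen. It went the other way, at 18.7 ± 4.39 CPM in control and 12.8 ± 1.42 CPM in MaeaCsf1r-Cre libraries (log2 fold change -0.50, SE 0.20). Its groups did not overlap.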

How the data were processed

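RNA of 6 HSC pools was amplified (SMART-Seq v4), made into Nextera XT libraries and sequenced in single-end reads of 150 bases. The authors trimmed reads with Trim Galore, aligned them to mm10 with STAR 2.5.3a, quantified Ensembl release 83 transcripts in Partek Flow, and deposited CPM with 0.0001 added to every value. A signal of 3 reads was 0.0492 to 0.0910 CPM, and such limits cover counting error only. Of low values 73.3 to 75.2% lay on whole reads, so no test for counts was used.

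Of the rows, 12955 reached 1 CPM in 3 libraries or more. These entered a two-sided limma 3.58.1 fit (R 4.3.3) of log2(CPM + 1) with a mean-variance trend, and p-values were adjusted by Benjamini-Hochberg with calls at 0.05. The code was tested on simulated data. Fold changes on this scale understate those of low genes. P-values set the difference between the groups against the spread between these pools, which the fit moderates over all genes tested. Deviations from the group means correlated between libraries of the same number (Pearson's r 0.627, 0.523 and 0.397 over genes). The correlations between other numbers were negative (-0.459 to -0.0538). Centring on the group means forces such negative values on balance, so they add no evidence of pairing. The labels' replicate numbers served as a block in a second fit, although the labels do not state a pairing. Lengths, positions and sequences came from GENCODE M21 on GRCm38, the assembly called mm10, an annotation later than the authors', and were aligned with Biopython 1.88. The length correction fitted a loess curve (span 0.5) to each library.

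The enzymes and the other lists were chosen with earlier results of these data known. Genes named beside them were Maea, every substrate and ATG12-ATG5 partner, and the gene of smallest p in each other pathway list. Cell type markers are given as sums. Usp18, Atg13, Atg14 and the markers named were picked after their values were seen.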

Additional observations from a re-analysis of the deposited data

How the results depend on the processing

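The count of enzymes called was 0 under all 15 alternatives, with a smallest adjusted p of 0.351 (limma with the replicate block, Atg4c). The replicate block changed no call among the enzymes, and over all genes the count was 1 with and 1 without it. The number of all genes called was 0 with a CPM minimum of 10 and 12 with the replicate block and length correction together, against 1, and 0 to 3 when 1 library was left out. The count of enzymes with no overlap was 0 under quantile normalization, 0 with the length correction with or without the block, and 0 with a CPM minimum of 10, which removes Atg4c, and 1 to 3 when 1 library was left out. Without MaeaCsf1r-Cre replicate 3 it was 3, with Atg12 and Atg5 added. With a library left out, groups fail to overlap more easily. No share over all genes is given for those settings, so these counts are not read as results about the enzymes. The median log2 fold change of the enzymes was 0.032 with the length correction, with or without the block. Other than for the CPM minimum, the cause was not tested.

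Signs near 0 changed. With the length correction, and again with the block added, the log2 fold changes that did so were Atg7 (0.054), Atg3 (0.060), Atg12 (0.0098), Atg5 (0.0013), Atg16l1 (0.12) and Atg4a (0.00025). After rescaling by median ratios, which moves every enzyme by nearly the same amount, they were Atg3 (0.045), Atg5 (0.0042) and Atg16l1 (0.025), and under quantile normalization Atg3 (0.019), Atg10 (0.0052), Atg16l1 (0.037) and Atg4a (0.071). Leaving out 1 library moved Atg7 between -0.20 and -0.017, Atg12 between -0.20 and -0.022, Atg4a between -0.12 and -0.0018, Atg3 between -0.12 and 0.076, Atg10 between -0.20 and 0.047, Atg5 between -0.15 and 0.045, Atg16l1 between -0.092 and 0.074, Atg4b between -0.028 and 0.092 and Atg4d between -0.078 and 0.14. Atg4c kept its sign in each alternative that tested it. By the longest transcript 3 of 10 enzymes kept their place in the order per kilobase, and the mean shares over all libraries were 14.7% for Atg4a, 60.8% for Atg4b, 8.07% for Atg4c and 16.5% for Atg4d. With Atg4a-ps added to Atg4a they were 28.5%, 42.3%, 10.5% and 18.6%.

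With 3 pools a group, the 95% intervals allow differences up to those given above, and reads per library limit Atg4a, Atg4c and Atg10 most.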
